A study of Mus musculus with 6 samples.

Results

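The peroxide-removing enzymes considered here are catalase, 6 peroxiredoxins and 3 glutathione peroxidases, measured in the ileal mucosa of duoxa-/- mice and of wild-type littermates. They were taken as every probe set whose gene symbol in the platform annotation was exactly 1 of 10 names: Cat, Prdx1 to Prdx6, Gpx1, Gpx2 and Gpx4. This gave 13 of 45037 probe sets, for 7 of the 10 genes, out of 18193 genes with a probe set of a single symbol. Cat, Prdx2 and Gpx4 had several probe sets, as did Prdx4, while Prdx3, Gpx1 and Gpx2 had 1 each. The 5 probe sets annotated to Prdx1 carried a second symbol and were not used, and Prdx5 and Prdx6 were not analysed here.

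Hydrogen peroxide is removed in cells by 3 families of enzymes. Catalase, in peroxisomes, splits it without a reducing partner, peroxiredoxins reduce it with a reactive cysteine that thioredoxin restores, and glutathione peroxidases spend glutathione, several of them with a selenocysteine at the active site. In the intestine, DUOX enzymes of the epithelium release hydrogen peroxide towards the lumen, and they need a DUOX maturation factor, DUOXA1 or DUOXA2, to leave the endoplasmic reticulum. Duoxa-/- mice lack these factors.

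The duoxa-/- group held 3 pools and the wt group 3 pools, all from terminal ileum of female 129S6 mice of 3 months. Each pool combined RNA of 2 to 3 animals of 1 genotype from 1 cage, each of the 3 cages was 1 litter with both genotypes housed together, and each pool was hybridised to 1 array. The labels say no more of the allele, and a pool hides the spread between its animals. The comparison asks whether the transcripts of enzymes that consume peroxide differ when DUOX maturation is lost.

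Array medians lay between 6.55 and 6.60, and r between any pair of arrays was 0.994 to 0.998 over the probe sets. All values below are the authors' RMA values of probe sets on the log2 scale, and the number of arrays limits their precision. Duoxa2 (1422137_at), a targeted gene, read 5.90, 5.55 and 5.92 in the duoxa-/- pools of cages 1, 2 and 3, against 8.81, 8.36 and 7.24 in the wt pools. Every duoxa-/- pool lay below every wt pool, and the wt pool of cage 3 was the lowest of its group. Duoxa1 (1460372_at) read 6.22, 5.92 and 6.33 in duoxa-/- pools, against 6.41, 6.26 and 6.25 in wt pools, below the median of all probe sets (6.58). The sources used here do not say where these probe sets lie relative to the deleted part, and Duox2 was not analysed here. The ileal enterocyte markers Fabp6, an intracellular bile acid carrier, and Slc10a2, the bile acid uptake transporter, read at least 14.64 and 12.18 in every pool.

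No peroxide-removing enzyme passed the test between genotypes. With limma, 0 of the 13 probe sets passed at an adjusted p under 0.05 (adjusted p 0.796 to 0.998). Across all 45037 probe sets 0% passed, so that the members were read against a background without calls. Duoxa2 (1422137_at), a targeted gene, did not pass either, at a difference of -2.34, or 5.08-fold lower (limma adjusted p = 0.794). At an unadjusted p under 0.05 there were 0 of 13 members, against 5.98% of all probe sets. The median difference, duoxa-/- minus wt, was -0.01 over the 13 probe sets and 0.00 over all, and the median size of a difference, regardless of sign, was 0.08 over both. The differences of the members ran from -0.28 for Cat to 0.09 for a dim probe set of Prdx4. The genotypes were free of overlap in 0 of the 13 probe sets, against 11.6% of all probe sets.

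**Figure D1:**
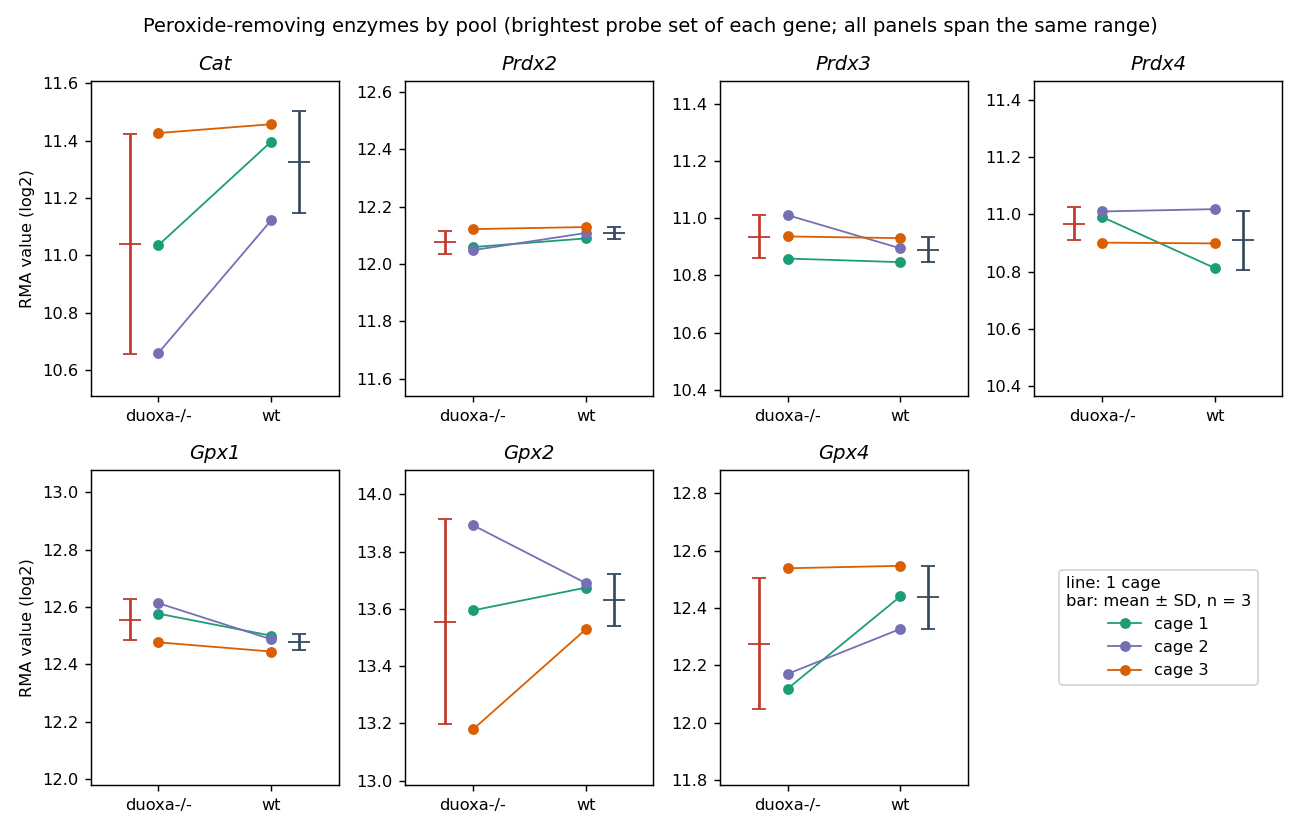
RMA values (log2) of the brightest probe set of each of the 7 measured genes, with the duoxa-/- pools on the left and the wt pools on the right of each panel; lines join the pools of a cage, bars give the mean and SD of 3 pools, and all panels span the same range. The duoxa-/- pools of Cat, Gpx2 and Gpx4 spread more widely than the wt pools, and the genotypes overlap in all 7 panels.

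Catalase, the peroxisomal enzyme, had the most negative difference of the members. Its brighter probe set (1416430_at) read 11.03, 10.66 and 11.43 in the duoxa-/- pools of cages 1, 2 and 3, against 11.40, 11.12 and 11.46 in the wt pools. The duoxa-/- pool was below its wt cage mate in cage 1 (-0.36) and cage 2 (-0.46) and close to it in cage 3 (-0.03). The group means were 11.04 ± 0.38 in duoxa-/- pools and 11.33 ± 0.18 in wt pools (SD, n = 3 each), a difference of -0.28 with a 95% interval of -0.70 to 0.13. This is 1.22-fold lower, with an interval that runs from 1.62-fold lower to 1.09-fold higher, and it did not pass (limma adjusted p = 0.796). The second Cat probe set (1416429_a_at) read 10.99, 10.53 and 11.24 in duoxa-/- pools, against 11.11, 11.00 and 11.19 in wt pools, a difference of -0.18 (95% interval -0.55 to 0.19; limma adjusted p = 0.841). Here the duoxa-/- pool of cage 3 was the higher of its cage, by 0.05. Single pools moved the Cat differences both ways. Without the duoxa-/- pool of cage 2 they were -0.09 and 0.02 for the brighter and the second probe set, and without that of cage 3 they were -0.48 and -0.34. Leaving out both pools of cage 2 gave -0.20 for the brighter probe set. With cage as a block, 1 of the 13 probe sets, the brighter one of Cat, had an unadjusted p under 0.05 in limma (0.033). Over all probe sets this share was 6.60%. In that fit the 95% interval of this Cat probe set was -0.54 to -0.03, and its limma adjusted p was 0.740.

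Gpx4, the glutathione peroxidase that reduces lipid hydroperoxides within membranes, had a pattern over the pools like that of Cat. Its brighter probe set (1451695_a_at) read 12.12, 12.17 and 12.54 in the duoxa-/- pools, against 12.44, 12.33 and 12.55 in the wt pools. The duoxa-/- pool was lower in cage 1 (-0.32) and cage 2 (-0.16), while both pools of cage 3 were high and nearly equal (-0.01). The means were 12.28 ± 0.23 in duoxa-/- pools and 12.44 ± 0.11 in wt pools (SD, n = 3 each), a difference of -0.16 (95% interval -0.44 to 0.12; limma adjusted p = 0.817). The second probe set (1456193_x_at), of a kind that can bind other transcripts, showed the same order within cages 1 and 2, with a difference of -0.09 (95% interval -0.31 to 0.12; limma adjusted p = 0.858). The difference of the brighter probe set was -0.08 when the duoxa-/- pool of cage 1 was left out, and -0.29 when that of cage 3 was.

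The mean of the enterocyte markers moved with Cat and Gpx4, but not every marker did. The mean of the 11 measured enterocyte markers was 13.27, 13.14 and 13.43 in the duoxa-/- pools, against 13.42, 13.29 and 13.41 in the wt pools, a difference of -0.16 in cage 1, -0.15 in cage 2 and 0.02 in cage 3. Of these 11 markers 9 had a negative difference, with a median of -0.06 and 0 called by limma. The sign was the same in all 3 cages for 4 of the 11. Anpep, 1 of the 11, read 12.17, 12.12 and 12.02 in duoxa-/- pools, against 12.65, 12.58 and 12.14 in wt pools. It was thus lowest in the duoxa-/- pool of cage 3, where Cat and Gpx4 were high. Alpi, the intestinal alkaline phosphatase of the brush border, read 12.18, 12.16 and 13.07 in duoxa-/- pools, against 13.02, 12.59 and 12.84 in wt pools. Epcam, a surface protein of all epithelium that is also 1 of the 11, read 14.34 to 14.38 in duoxa-/- pools and 14.32 to 14.36 in wt pools. In bulk mucosa, fewer cells of a type and less RNA per cell cannot be told apart, and the part of the enterocyte markers in the values of Cat and Gpx4 was not tested. Alpi, Anpep and Epcam were chosen after their values were seen. Over the 15 lists of cell type markers, 0 genes were called and the median differences lay between -0.30 for smooth muscle and 0.59 for the 3 measured neutrophil markers. Of the neutrophil markers 0 reached the median level of all probe sets, and their median difference was 0.29, 1.09 and 0.17 within cages 1, 2 and 3. For smooth muscle it was -0.91, 0.20 and -0.25, so that the sign changed between cages.

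**Figure D2:**
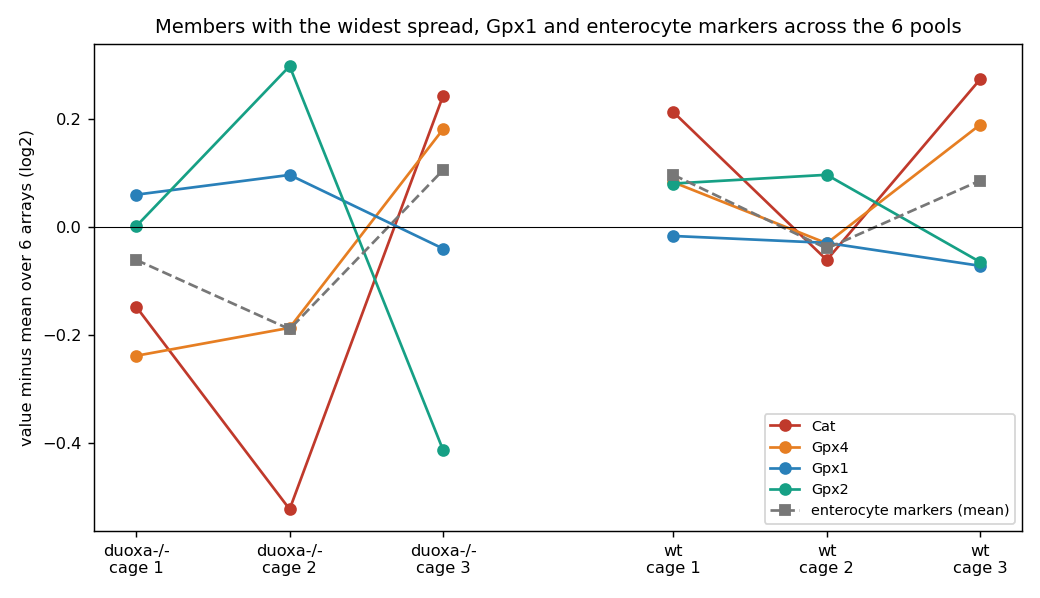
Deviation of each pool from the mean over 6 arrays (log2) for Cat, Gpx4, Gpx1, Gpx2 and the mean of 11 enterocyte markers, with the duoxa-/- pools on the left and the wt pools on the right; lines only join the values of 1 gene, since cages have no order. Cat ranged from -0.52 in the duoxa-/- pool of cage 2 to 0.27 in the wt pool of cage 3, and Gpx2 from -0.41 to 0.30 in the duoxa-/- pools of cages 3 and 2.

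The 250 bases before the transcript start are shown for Cat and Gpx4, whose values had a like order over the pools, and for Gpx1, whose values ran the other way. The brighter Prdx2 probe set also had an order like that of Cat and Gpx4, over a narrower range. The sequences are from RefSeq on GRCm38.p6, 5′ to 3′ on the strand of the gene, and all 7 measured genes had an entry. Capitals mark CCAAT boxes (CCAAT, or ATTGG on the other strand) and GC boxes (GGGCGG or CCGCCC), none of which overlap here. Cat lies at chr2:103485154-103485403 on the minus strand, Gpx4 at chr10:80053315-80053564 on the plus strand (1 of 4 starts that the table lists) and Gpx1 at chr9:108338830-108339079 on the plus strand.
Cat: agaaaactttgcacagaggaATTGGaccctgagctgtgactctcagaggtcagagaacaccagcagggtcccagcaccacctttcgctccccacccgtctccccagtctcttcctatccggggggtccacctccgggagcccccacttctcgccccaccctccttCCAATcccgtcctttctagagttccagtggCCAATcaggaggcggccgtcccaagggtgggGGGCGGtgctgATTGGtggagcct
Gpx4: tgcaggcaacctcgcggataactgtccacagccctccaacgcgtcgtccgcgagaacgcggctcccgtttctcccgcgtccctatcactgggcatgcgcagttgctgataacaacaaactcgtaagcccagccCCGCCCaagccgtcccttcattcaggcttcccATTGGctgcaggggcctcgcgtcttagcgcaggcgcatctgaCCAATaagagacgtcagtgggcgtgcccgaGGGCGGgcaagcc
Gpx1: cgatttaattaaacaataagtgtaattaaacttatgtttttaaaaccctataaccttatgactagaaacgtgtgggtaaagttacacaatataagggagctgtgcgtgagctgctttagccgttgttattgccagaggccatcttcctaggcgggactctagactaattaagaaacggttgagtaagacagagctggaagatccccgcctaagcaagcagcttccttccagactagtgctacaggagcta
The Cat window held 4 CCAAT boxes and 1 GC box, the Gpx4 window 2 of each, and the Gpx1 window 0 of either. The Prdx2 window held 0 of either as well. Prdx4 had 1 CCAAT box and 3 GC boxes, Gpx2 had 1 and 0, and Prdx3 had 0 and 1. The boxes thus did not follow the order of the values over the measured genes. The 3 other Gpx4 windows held 1, 3 and 0 CCAAT boxes and 0, 2 and 1 GC boxes. Among 32851 promoter windows of the same length in the table, 33.8% held a CCAAT box and 32.7% a GC box. The core of the antioxidant response element (TGACNNNGC, searched on both strands and present in 10.2% of windows) was found in 0 of the windows of the measured genes. These matches describe letters in a window of 250 bases and bear on no factor.

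Gpx2, the glutathione peroxidase of the gastrointestinal epithelium, varied between duoxa-/- pools more than between genotypes. It read 13.59, 13.89 and 13.18 in the duoxa-/- pools of cages 1, 2 and 3, against 13.67, 13.69 and 13.53 in the wt pools. The duoxa-/- group held both the highest and the lowest of the 6 values. The means were 13.56 ± 0.36 in duoxa-/- pools and 13.63 ± 0.09 in wt pools (SD, n = 3 each), a difference of -0.08 (95% interval -0.44 to 0.29; limma adjusted p = 0.933). Left without the cage 3 duoxa-/- pool, it turned to 0.11.

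Gpx1, the selenium-dependent glutathione peroxidase of the cytosol found in most tissues, read 12.58, 12.61 and 12.48 in the duoxa-/- pools, against 12.50, 12.49 and 12.44 in the wt pools. It was the higher of the pair in each cage, by 0.08, 0.13 and 0.03, yet the groups overlapped, because the duoxa-/- pool of cage 3 lay below the wt pools of cages 1 and 2. The difference was 0.08 (95% interval -0.10 to 0.26), or 1.06-fold, and did not pass (limma adjusted p = 0.854). Of the selenium-dependent members, Gpx1 thus had a positive difference and Gpx2 and Gpx4 negative ones, and the intervals of all 3 included 0.

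The main probe sets of the 3 measured peroxiredoxins each spanned at most 0.21 over the 6 arrays. Prdx2, a cytosolic peroxiredoxin that is abundant in red cells, read 12.06, 12.05 and 12.12 in duoxa-/- pools, against 12.09, 12.11 and 12.13 in wt pools (1418506_a_at). Its 6 values spanned 0.08, and its SD over the 6 arrays, 0.033, was larger than that of only 0.98% of all probe sets. The difference was -0.03, with an interval from 0.87-fold to 1.10-fold. Of 5 listed markers of red cells only 3 were measured. These averaged 4.97 to 5.04 in duoxa-/- pools and 4.97 to 5.12 in wt pools, under the median of all probe sets in every pool. Markers this dim cannot show how much red cell RNA the pools held, and the part of red cells in the Prdx2 values was not tested.

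Prdx3, the peroxiredoxin of mitochondria, read 10.86, 11.01 and 10.94 in duoxa-/- pools, against 10.85, 10.89 and 10.93 in wt pools. The difference was 0.04 (95% interval -0.14 to 0.23), most of it from cage 2 (0.12, against 0.01 in both other cages). Prdx4, the peroxiredoxin of the endoplasmic reticulum, read 10.99, 11.01 and 10.90 in duoxa-/- pools, against 10.81, 11.02 and 10.90 in wt pools with its brightest probe set (1416167_at). The pools of cages 2 and 3 were equal within 0.01, and the wt pool of cage 1 was the lowest of the 6. The difference was 0.06 (95% interval -0.14 to 0.25), and the limma adjusted p of the main probe sets of the 3 peroxiredoxins lay between 0.900 and 0.938.

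The other probe sets of the peroxiredoxins did not pass either. The 3 further Prdx4 probe sets differed by -0.01 (1416166_a_at), 0.01 (1435731_x_at) and 0.09 (1431269_at). In cage 1 all 4 Prdx4 probe sets were higher in the duoxa-/- pool, by 0.15 to 0.23, and in cage 2 all 4 were lower in it, by values from -0.01 to -0.23. The second Prdx2 probe set (1430979_a_at) differed by -0.00. This probe set and 1431269_at of Prdx4 lay under the median of all probe sets, so that 11 of the 13 reached that level.

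**Figure D3:**
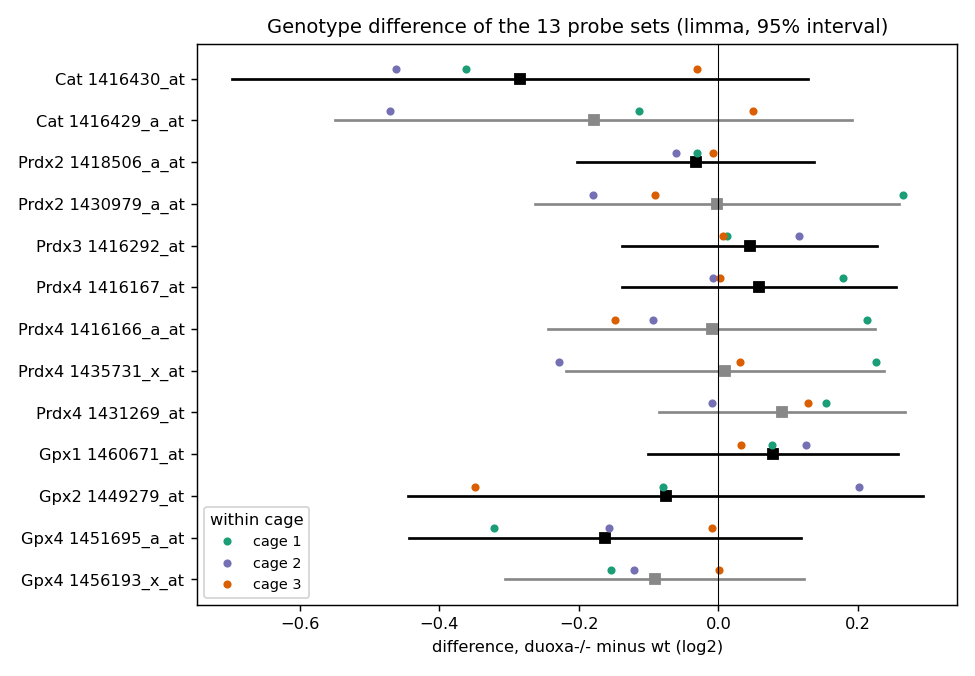
Difference, duoxa-/- minus wt (log2), of the 13 probe sets of the 7 genes: squares and lines give the limma estimate and its 95% interval over 3 duoxa-/- and 3 wt pools (black for the brightest probe set of a gene, grey for the others), and small points the difference within each cage. All 13 intervals, from the fit without a cage term, include 0, and the Cat probe sets reach furthest to the left.

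Within cages, 5 of the 13 probe sets had the same sign in all 3, against 29.6% of all probe sets. Cat (1416430_at), Prdx2 (1418506_a_at) and Gpx4 (1451695_a_at) were lower in the duoxa-/- pool of every cage, 3 of 13 against a background of 14.3%. Prdx3 and Gpx1 were higher in the duoxa-/- pool of every cage, 2 of 13 against 15.3%. Over the 13 probe sets, the median difference was 0.01 within cage 1, -0.09 within cage 2 and 0.00 within cage 3.

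Between litters, Cat was highest in cage 3, with a mean of 11.44 over both genotypes, against 11.22 in cage 1 and 10.89 in cage 2. Gpx4 was likewise highest in cage 3 (12.54, against 12.28 and 12.25 in cages 1 and 2), and Gpx2 was lowest there (13.35, against 13.63 and 13.79). With limma's moderated F-test between cages, 0 of the 13 passed (smallest adjusted p 0.877 for Cat), against 0.00222% of all probe sets. At an unadjusted p under 0.05 there were 2 of 13, both of Cat, against 5.55%. The 1 probe set that passed, 1425871_a_at, has no symbol in the annotation, and it was named here because it passed.

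Genes with the most similar values over the 6 arrays were looked up for the 3 members of widest spread, Cat (SD 0.31), Gpx2 (0.24) and Gpx4 (0.18), among 10146 probe sets with 1 symbol whose mean and SD reached the medians of all probe sets. For Cat these were Hsd17b4, a peroxisomal enzyme of fatty acid oxidation (Pearson r = 0.993 over 6 arrays), and Mettl7a1 (r = 0.992). Hsd17b4 (1455777_x_at) read 10.58, 10.26 and 10.82 in duoxa-/- pools, against 10.77, 10.61 and 10.81 in wt pools. It was chosen for its likeness to Cat, so its lower values in the duoxa-/- pools of cages 1 and 2 follow from that choice. For Gpx2 they were Ms4a7 (r = 0.970) and Gpd2, the mitochondrial glycerol-3-phosphate dehydrogenase (r = 0.967), and for Gpx4 they were Ppdpf (r = 0.993) and Kyat1 (r = 0.992). The probe sets of Hsd17b4, Mettl7a1 (1454858_x_at) and Kyat1 (1428151_x_at) are of a kind that can bind other transcripts. These r values are the highest of many candidates over 6 arrays that share cages in pairs, and describe these arrays only.

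Among the sources of peroxide, 0 genes of 3 lists passed. Of the NADPH oxidases and DUOX maturation factors 11 of 16 were measured, 6 with a positive and 5 with a negative difference (median 0.09, against 0.00 over all probe sets), and 2, Duoxa2 and Nox4, had an unadjusted p under 0.05. Nox4, an oxidase that releases hydrogen peroxide directly, read 5.22, 5.16 and 5.09 in duoxa-/- pools, against 5.55, 5.64 and 5.35 in wt pools, a difference of -0.36 (SE 0.10) at a level under the median of all probe sets. The duoxa-/- pools lay below all wt pools, as in 5.36% of all probe sets. The list of superoxide dismutases held Sod1 to Sod3, which turn superoxide into peroxide, and the copper chaperone Ccs. Of these 4 genes, 2 were higher and 2 lower, with a median of -0.03. The cytosolic Sod1 differed by -0.12 (SE 0.11) and the extracellular Sod3 by -0.07 (SE 0.09). Sod3 read under the median of all probe sets in every pool. Without the wt pool of cage 3, Sod1 differed by -0.022, and without that of cage 1, Sod3 differed by -0.011. Of 16 other peroxide-producing oxidases, 11 had a negative difference (median -0.09), among them the peroxisomal acyl-CoA oxidase Acox3 at -0.20 (SE 0.09) and the hydroxyacid oxidase Hao1, dim at 3.99 to 4.35 in all pools, at -0.19 (SE 0.08).

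In the lists of partners of these enzymes, 0 genes passed. Of 23 measured genes of thioredoxin and glutathione supply, 14 had a negative and 9 a positive difference (median -0.05). The glutathione synthetase Gss read 10.06, 10.01 and 10.12 in duoxa-/- pools, against 10.28, 10.24 and 10.29 in wt pools, a difference of -0.21 (SE 0.08). All its duoxa-/- pools lay below all wt pools, as for 3 of the 23 genes of this list and 5.36% of all probe sets. Sesn2, a stress-induced sestrin, differed by -0.17 (SE 0.09). Of 22 genes of selenoprotein synthesis and other selenoproteins, on whose machinery Gpx1, Gpx2 and Gpx4 depend, 12 were higher and 10 lower (median 0.02). Msrb1, a selenoprotein that repairs oxidised methionine, differed by -0.36 (SE 0.14), and the deiodinase Dio2 by 0.28 (SE 0.14). Dio2 read under the median of all probe sets in every pool. Msrb1 was at -0.20 without the wt pool of cage 1, and Dio2 at 0.12 without the duoxa-/- pool of cage 2.

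Among 12 other peroxidases, 9 had a negative difference (median -0.04) and 0 passed. Gpx3, the secreted glutathione peroxidase, read 9.78, 9.85 and 9.72 in duoxa-/- pools, against 10.58, 10.26 and 9.78 in wt pools. It was lower in the duoxa-/- pool of every cage, but in cage 3 by 0.06 only, and the difference of -0.43 (SE 0.18; limma adjusted p = 0.794) was -0.24 without the wt pool of cage 1. The mean of the 7 smooth muscle markers was also highest in that pool. It was 11.35, 11.79 and 11.58 in duoxa-/- pools, against 12.21, 11.56 and 11.78 in wt pools. In cage 2 this mean was higher in the duoxa-/- pool (0.23), where Gpx3 was lower (-0.41). Tuft cell markers averaged lower in the duoxa-/- pool of every cage (-0.55, -0.17 and -0.02 in cages 1, 2 and 3). So did mast cell and eosinophil markers (-0.68, -0.51 and -0.05). Of single genes, 2 of 5 tuft cell markers and 4 of 7 mast cell and eosinophil markers were lower in every cage. Markers of cycling crypt cells (0.24, 0.11 and 0.13) and neutrophils (0.21, 0.85 and 0.15) instead averaged higher in the duoxa-/- pool of every cage. The part of any of the 15 cell type lists in the Gpx3 values was not tested. Gpx5, a glutathione peroxidase known from the epididymis, differed by -0.20 (SE 0.10), and by -0.11 without the wt pool of cage 1. Its mean over the 6 arrays, 6.51, lay under the median of all probe sets, though its wt mean, 6.61, did not. Of 17 genes of peroxisome biogenesis and membrane, 11 were higher and 6 lower (median 0.02), with Pex19, which brings in peroxisomal membrane proteins, at -0.26 (SE 0.10) and Pex5, the receptor that imports catalase and other matrix proteins, at -0.15 (SE 0.09). Of 8 aquaporins, some of which let peroxide cross membranes, 6 had a negative difference (median -0.10), with Aqp1 at -0.33 (SE 0.10) and the glycerol channel Aqp7 at -0.41 (SE 0.31). The Aqp7 value lay between -0.74 and -0.19 when single pools were left out, and was -0.065 without cage 1. The limma adjusted p of the 2 genes of smallest p in each of these lists lay between 0.794 and 0.880.

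**Figure D4:**
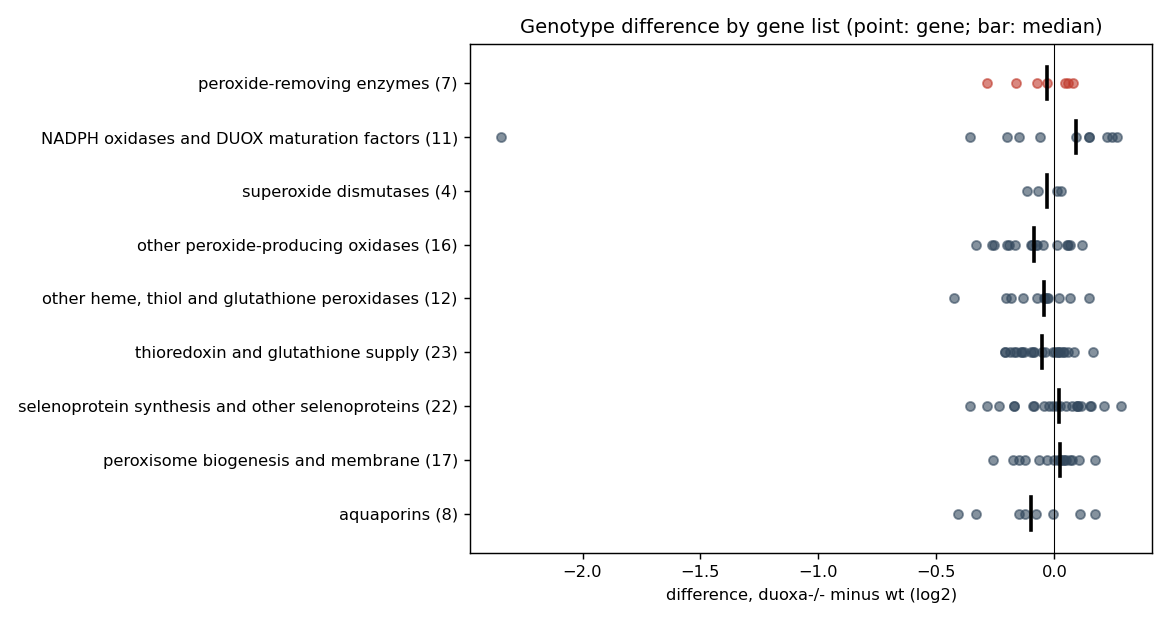
Difference, duoxa-/- minus wt (log2), of the 7 peroxide-removing enzymes (top) and of the measured genes of 8 related lists, with 1 point for a gene at its brightest probe set and a bar at the median of the list. The list medians lie between -0.10 and 0.09, and the point at -2.34 is Duoxa2.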

How the data were processed

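Biotin-labelled RNA was hybridised to 1 single-colour array per pool, per the labels' protocols. The deposited values are log2 probe set summaries that the authors computed by RMA (affy package), as the submitters' processing notes name it; the sources used here give no versions. RMA compresses differences of dim probe sets. Of 45101 probe sets, 64 controls were left out.

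Genotypes were compared by two-sided moderated tests (limma 3.58.1, R 4.3.3) on all 6 arrays without a cage term, adjusted by Benjamini-Hochberg over 45037 probe sets at a threshold of 0.05, and cages by limma's F-test in a fit that also held genotype. Both were also run on simulated data with independent noise between arrays. The genotype runs held no cage effect, so they cannot tell whether a cage term is needed. Sequences were read with Python 3.11.15. The main probe set of a gene has the highest mean. Every member probe set is given; each pathway list is named by its 2 genes with the smallest p. The members and lists were chosen with earlier results of these data known.

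Cages are litters per the series' design text and so pair the pools. Deviations of cage mates from group means correlated with r = -0.15, 0.07 and 0.29 in cages 1, 2 and 3. Between pools of different cages r ran from -0.38 to 0.38, so these values cannot show how far cage mates are alike. Alternatives were a cage block, leaving out pools or cages, filters on probe sets, other scalings, array weights and an intensity trend.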

Additional observations from a re-analysis of the deposited data

How the results depend on the processing

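Of the 13 member probe sets, 0 passed between genotypes or between cages under any alternative run. Over all probe sets the count between genotypes was 0 to 1 when pools or cages were left out, the 1 being Duoxa2 without the wt pool of cage 3, and 0 under each other setting. With cage as a replicate block, 0 of 45037 and 0 of 13 passed and the median of the members was -0.01; the block changed no call. The median of the members lay between -0.074 (without cage 1) and 0.043 (without cage 3). Between cages, 1 probe set passed as reported, 2 with 1 probe set a gene, 3 with arrays centred on their medians, 5 with an intensity trend, and 1 to 16 without single pools. Signs turned for 7 of the named probe sets when pools or cages were left out: this gave -0.34 to 0.017 for Cat (1416429_a_at), -0.24 to 0.11 for Gpx2, -0.14 to 0.087 for Prdx2 (1430979_a_at), -0.14 to 0.014 for Sod3, and for Prdx4 -0.12 to 0.076 (1416166_a_at), -0.10 to 0.13 (1435731_x_at) and -0.0027 to 0.11 (1416167_at). Quantile normalization gave 0.012 for Prdx2 (1430979_a_at), centring -0.0012 for Prdx4 (1435731_x_at) and array weights 0.015 for Prdx4 (1416166_a_at); the cause was not tested. With 3 pools a genotype, what can be called is limited. Except for the blocked interval of Cat, the intervals above give the sizes that remain possible in the fit without a cage term.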
